A study of Mus musculus with 3 samples.

Results

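Mature cytoplasmic ribosomes are built on RNAs that RNA polymerase I transcribes as a single long precursor, in which an external spacer is followed by the small-subunit 18S RNA, an internal spacer and, further on, the large-subunit 28S RNA. The spacers are cut away and degraded. The repeated genes themselves are mostly missing from assembled chromosomes, so their reads can be assigned to single annotated copies or fragments that sit elsewhere in the genome. The 6 genes Gm26917, Gm42418, AY036118, CT010467.1, Lars2 and Mir6236, out of 55536 genes in the tables, were taken as annotations that carry such reads. For the chromosome 17 genes this rests on place or sequence. For Lars2 and Mir6236 no 28S sequence was compared here. Lars2 holds a block shared with transcripts of other genes, whose ribosomal origin is background knowledge. They were chosen by name, from measured values of these same libraries (their expected counts and TPM, a level per transcript length and per library, in the gene and transcript tables), so their levels are given as a description.

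The data came from total RNA of F121-9, a hybrid mouse embryonic stem cell line from a cross of Cast and 129, with no treatment or genotype contrast. The 3 libraries are labelled as biological replicates 1, 2 and 3 of 1 group, all at passage 14 and each started from 400 ng of RNA. No source used here says whether ribosomal RNA was removed before sequencing. Each library has an RSEM-style gene table, an RSEM-style transcript table and a kallisto-style transcript table, made from the same reads with the GENCODE M21 annotation of the mm10 build. All 7 embryonic stem cell markers examined were at 1 TPM or more in every library, with a summed level of 26560 to 29434 TPM, mostly Dppa5a (24210 to 27313 TPM). Of 6 fibroblast markers, 2 reached that level in every library (summed level 55.8 to 64.8 TPM, mostly Fbln1), and the collagen gene Col3a1 was listed at 0. Between 9575747 and 10425623 RSEM-style counts fell on genes, so 0 counts allow up to 0.288 to 0.313 CPM, counts scaled to the library total. Such limits cover counting error only.

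A group of 4 of the 6 genes lies side by side on chromosome 17 (mm10 coordinates throughout). Gm26917 (ENSMUSG00000097971.3), annotated as a long intergenic noncoding RNA, runs on the plus strand from 39843013 to 39846341. Gm42418 (ENSMUSG00000098178.1), annotated in the same way, lies on the plus strand from 39846958 to 39848788. CT010467.1 (ENSMUSG00000106106.2), the only member typed as ribosomal RNA, covers 39846353 to 39848827 on the minus strand, and its 3′ end lies 11 bases past the end of Gm26917. AY036118 (ENSMUSG00000105361.1), also a long intergenic noncoding RNA, lies inside it on the minus strand from 39847113 to 39848035. RefSeq (GRCm38.p6) names the ribosomal stretch Rn18s-rs5 and lists Gm42418 as a synonym. The other 2 members are on chromosome 9. Lars2 (ENSMUSG00000035202.8, plus strand, 123366927 to 123462666) encodes the mitochondrial leucyl-tRNA synthetase, which charges the leucine tRNAs of the organelle, and Mir6236 (ENSMUSG00000098973.1, plus strand, 110281287 to 110281409) is annotated as a microRNA gene.

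The sequences show which strand of the unit each chromosome 17 gene reports. The first 30 bases of the transcript CT010467.1-201, in capitals below, are the reverse complement of the capitals in Gm42418-201. These letters end the 18S RNA on the plus strand, so Gm42418 runs in the sense of ribosomal RNA and CT010467.1 and AY036118 run against it. The last bases of CT010467.1-201 are the complement of the start of 18S RNA. The stretches, 5′ to 3′ from the GENCODE M21 transcripts, lie at chr17:39848152-39848231 (plus), chr17:39848142-39848201 (minus) and chr17:39846353-39846412 (minus).
Gm42418-201, bases 1195 to 1274: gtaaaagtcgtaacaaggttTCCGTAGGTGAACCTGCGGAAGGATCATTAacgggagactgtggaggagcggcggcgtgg
CT010467.1-201, bases 1 to 60: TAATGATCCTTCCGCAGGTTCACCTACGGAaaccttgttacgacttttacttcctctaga
CT010467.1-201, bases 1790 to 1849: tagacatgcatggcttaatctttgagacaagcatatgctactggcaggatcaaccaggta

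Sequence sharing was counted over distinct 31-base words on either strand. Of the 1801 words of Gm42418, 1735 (96.3%) occurred as reverse complements in CT010467.1, and all 893 words of AY036118 occurred both in CT010467.1 on the same strand and in Gm42418 on the opposite one. CT010467.1-201 spans the whole 18S stretch in 1849 bases, and Gm42418-201 covers the last 1244 bases of it plus 587 bases of the spacer that follows. The short transcript CT010467.1-202 overlaps CT010467.1-201 by 99 bases only and otherwise lies against that spacer. Gm26917 shared 0 of its 3326 words with the other members. It holds the spacer ahead of the 18S RNA and had the highest GC content of the 6, 69.1%, above 99.8% of 139316 transcripts (median 49.2%). None of the members' words was found in the 355 other transcripts whose gene is typed as ribosomal RNA, which do not include Gm15564.

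**Figure D1:**
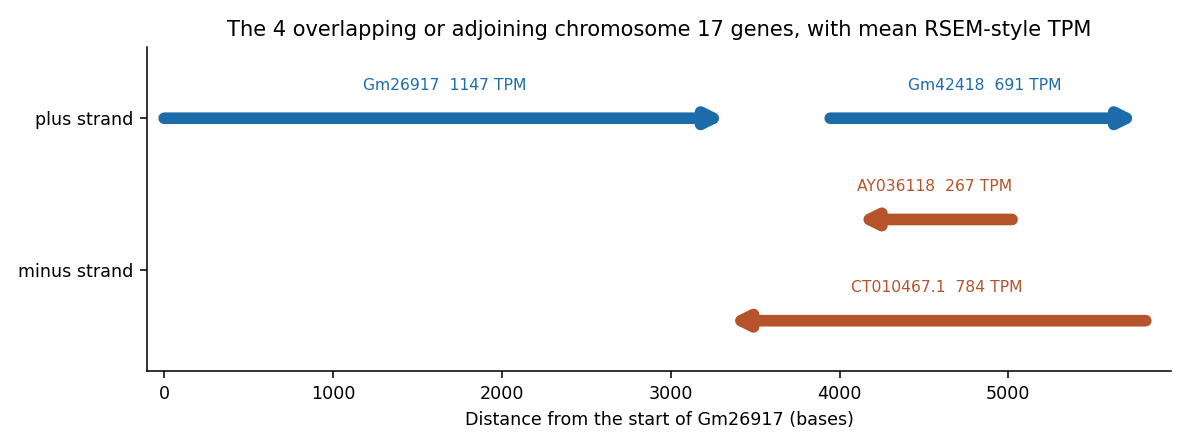
Map of the 4 chromosome 17 genes, to scale, as distance in bases from the start of Gm26917. Arrows point in the direction of transcription, plus strand in blue and minus strand in brown, and each gene carries its mean RSEM-style TPM over 3 libraries. Gm26917 (1147 TPM) stands alone, and Gm42418 (691 TPM) runs against CT010467.1 (784 TPM) and AY036118 (267 TPM).

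On chromosome 9 the block taken as ribosomal sits in the last exon of Lars2. Lars2 shared 0 of its 11160 words with the other members. That exon (123461499 to 123462666, 1168 bases in Lars2-209) lies past the stop codon of Lars2-209 (123438213 to 123438215), and so in untranslated sequence of that transcript. The stop codon of the protein-coding Lars2-201 was not examined. Identical blocks of 41, 34 and 41 bases occur in AA474408-201, a transcript of unassigned type on chromosome 7, and a block of 52 bases in Gm15564-202 on chromosome 16. The 30 bases below, at chr9:123462048-123462077 (plus), are common to all 3. Among the 9 Lars2 transcripts, Lars2-201 and Lars2-209 hold them. That this block derives from 28S RNA is background knowledge, since the reference used here holds no 28S sequence to compare it with.
Lars2-209, bases 3138 to 3167: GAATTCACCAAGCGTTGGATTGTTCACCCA

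Mir6236 spans 123 bases. Its mature microRNA has a seed that no other of the 1738 mature microRNAs in the RefSeq table has. Mir6236 shared 0 of 93 words with the other members, and its relation to 28S RNA was not compared here either.

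In the RSEM-style tables the members together took 0.413%, 0.663% and 0.626% of gene counts in replicates 1, 2 and 3 (mean 0.568 ± 0.135%, SD, n = 3). Replicate 1 was the low one and replicates 2 and 3 lay close together. In the kallisto-style tables the shares were 0.652%, 1.17% and 1.10% (0.976 ± 0.283%), with the same library low. In counts, which are not per length, Gm26917 alone ranked 18th, 4th and 6th among all genes of replicates 1, 2 and 3 in the RSEM-style tables.

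The spacer gene Gm26917 had the highest RSEM-style level of the 6, at 888.5, 1307 and 1245.5 TPM in replicates 1, 2 and 3 (1147 ± 226 TPM, SD, n = 3). All of it was assigned to the unspliced transcript Gm26917-202, and the spliced Gm26917-201 was listed at 0 counts in both quantifications. The sense 18S gene Gm42418 stood at 570, 767 and 735 TPM (691 ± 106 TPM). Gm26917 over Gm42418 gave a ratio of TPM of 1.65 ± 0.0815, so Gm26917 stood above Gm42418 in each library, by 1.56 to 1.70 times. Gm42418 covers part of the 18S RNA and part of the spacer that follows, so the ratio does not set spacer against mature RNA alone. In the kallisto-style tables this ratio was 2.05 ± 0.118.

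Of the 2 antisense genes, CT010467.1 lay near the sense gene and AY036118 far below it. CT010467.1 had 693, 842 and 816 TPM (784 ± 79.6 TPM), above Gm42418 in each library, although their ranges over libraries overlap. Its longer transcript CT010467.1-201 alone had 537, 668 and 646 TPM in replicates 1, 2 and 3, below Gm42418 in each library. The order of the genes thus depends on adding the shorter transcript, most of which lies against the spacer. AY036118 had 206, 299.7 and 296 TPM (267 ± 52.9 TPM). In RSEM-style counts the minus-strand genes together were 1.15 ± 0.039 times the plus-strand Gm42418, and in kallisto-style counts 1.28 ± 0.0365 times. Counts are not per length. The minus-strand genes cover a longer stretch than Gm42418, so these ratios do not rank the strands per base. No source used here gives the strand setting of either quantification. The deposited posterior SD of the count was 0 for Gm42418, Gm26917 and Lars2 in every library, so no reads were divided between Gm42418 and the genes lying against it. For AY036118 and CT010467.1 it was 76.3, 83.8 and 78.7 counts in replicates 1, 2 and 3, the same for both genes. That is 4.90% to 6.72% of the counts of AY036118 and 0.907% to 1.04% of those of CT010467.1, so the split between these 2 same-strand genes is uncertain by that much.

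Within CT010467.1 the 18S-length transcript and the spacer transcript were both lower in replicate 1. CT010467.1-201 took 78.7 ± 1.03% of the gene's RSEM-style TPM (617 ± 70.2 TPM). CT010467.1-202 had 156, 174 and 169.6 TPM in replicates 1, 2 and 3 (167 ± 9.47 TPM), with log2(CPM + 1) in replicate 1 below the mean of replicates 2 and 3 by a difference of -0.18. For CT010467.1-201 that difference was -0.34, and the gap between the 2 transcripts was not tested.

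Lars2 had 230, 556 and 512 TPM in replicates 1, 2 and 3 (433 ± 176 TPM), a range that overlaps that of AY036118 and lies below that of Gm42418. Almost all of its signal was assigned to 1 transcript. Lars2-209, annotated as a target of nonsense-mediated decay, held 97.9 ± 0.799% of the gene's TPM (424 ± 175 TPM). The protein-coding Lars2-201 had 5.58, 8.59 and 7.38 TPM (7.18 ± 1.51 TPM). Both transcripts hold the shared block of the last exon. Reads within that block do not tell them apart, so this split is an estimate. Replicate 1 was low for both transcripts, and by more for Lars2-209 (log2 difference to the mean of replicates 2 and 3 of -1.28) than for Lars2-201 (-0.53). With kallisto-style counts these differences were -1.33 and -0.29.

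Set among the mitochondrial aminoacyl-tRNA synthetase genes, each of which charges the tRNAs of one amino acid in the organelle, Lars2 was the highest of 16, all of them at 1 TPM or more in every library. The other 15 ranged from 2.63 (Mars2, for methionine) to 85.6 TPM (Rars2, for arginine), with a median of 27.0 TPM. Next to Rars2 were Tars2 at 71.6 and Yars2 at 44.0 TPM. The coding transcript Lars2-201 alone, at 7.18 TPM, had 13 of these genes above it and 2 below it. The other synthetase genes differed little between libraries, with log2 differences of replicate 1 to the mean of replicates 2 and 3 between -0.17 and 0.15 over the 13 that reached 20 mean CPM.

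**Figure D2:**
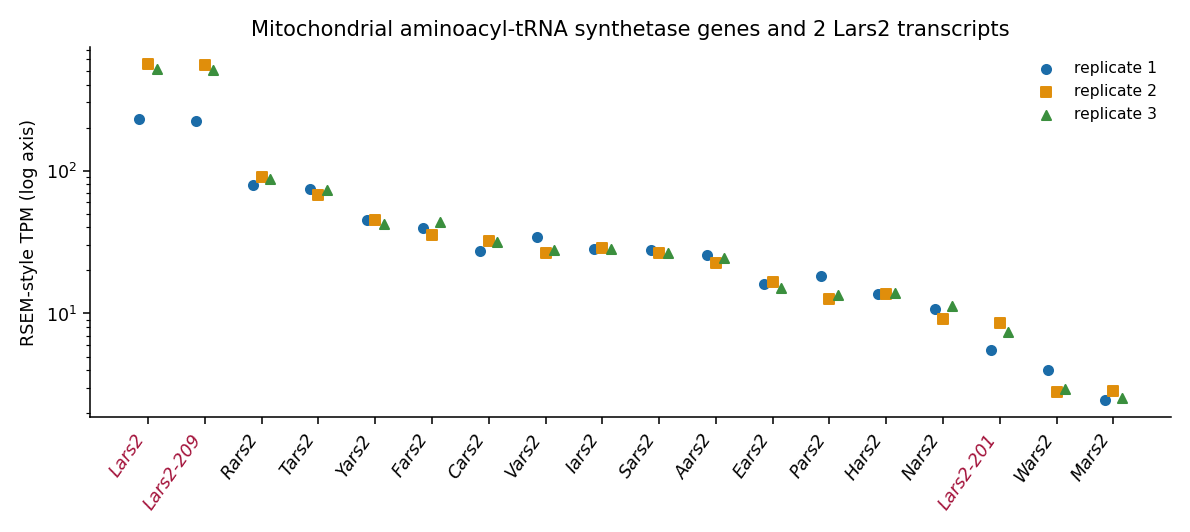
RSEM-style TPM (log axis) of 16 mitochondrial aminoacyl-tRNA synthetase genes and, in red, Lars2 with its transcripts Lars2-209 and Lars2-201, ordered by mean. Each symbol is 1 library. Lars2 and Lars2-209 lie at 223 to 556 TPM, above every other gene, with replicate 1 lowest, and Lars2-201 lies at 5.58 to 8.59 TPM near the low end.

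The 2 quantifications gave Mir6236 opposite answers. Its kallisto-style level was 12902, 29314 and 26711 TPM in replicates 1, 2 and 3 (22976 ± 8821 TPM), from 9023, 20758 and 19590 counts, ranking 2nd, 1st and 4th among all genes by TPM. In the RSEM-style tables it was listed at 0 in all 3 libraries. The effective length, the number of positions at which a fragment can start, was 46.2 nt in the kallisto-style and 2.22 to 2.24 nt in the RSEM-style tables, so that the 0 does not show absence and the kallisto-style TPM rests on a small divisor. Per count rather than per length, Mir6236 was 9.13 ± 1.54% of the members' kallisto-style counts, and Gm26917 was 38.2 ± 3.50%.

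For Lars2 the kallisto-style level was 530, 1228 and 1156 TPM (971 ± 384 TPM), against 433 ± 176 TPM in the RSEM-style tables. The ratio of kallisto-style to RSEM-style counts was 4.72 ± 0.124 for Lars2 and between 1.60 and 2.45 for the 4 chromosome 17 genes, beside a median of 1.65 and a 95th percentile of 2.17 over 7574 genes. By transcript, on the scale of log2(TPM + 1), the difference of kallisto-style minus RSEM-style was 1.19 ± 0.0553 (limma SE, n = 3) for Lars2-209 and 1.10 ± 0.0581 for CT010467.1-202. For Mir6236-201, listed at 0 in the RSEM-style tables, the difference is set by the pseudocount and no size is given. These 3 of the members' 8 transcripts tested were called higher in the kallisto-style tables (limma adjusted p under 0.05 and a difference of at least 1), where 12.1% of all 28903 tested transcripts were. The tables of these transcripts were among the values that chose the genes, so nothing is read from that count. The difference was -0.47 for AY036118-201, 0.23 for Gm26917-202, 0.12 for Lars2-201, -0.09 for Gm42418-201 and -0.003 for CT010467.1-201, and none of these 5 reached the minimum difference.

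**Figure D3:**
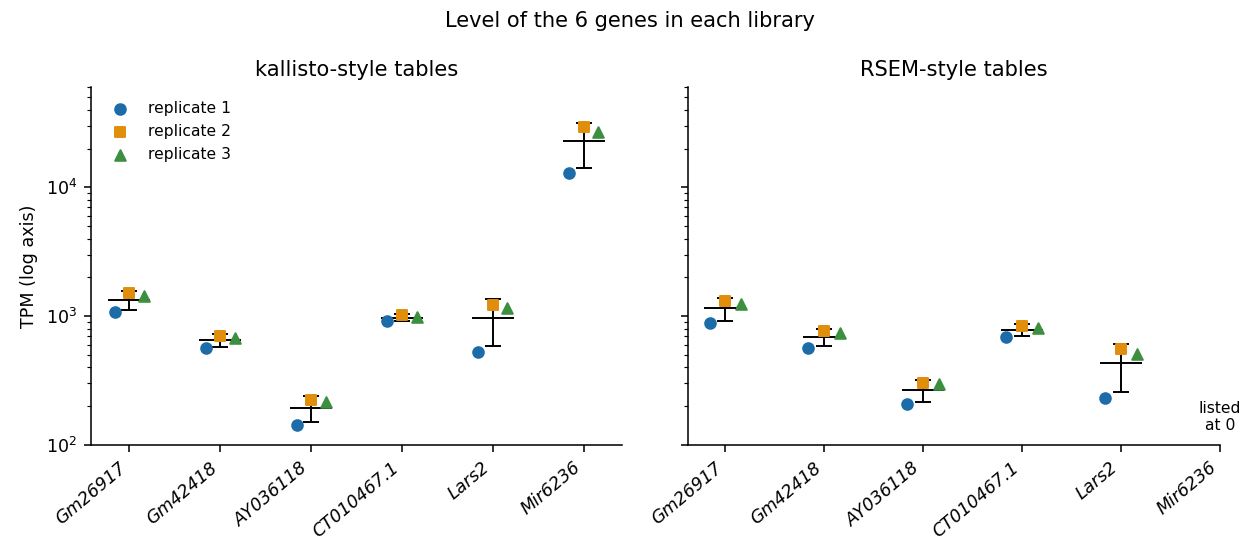
TPM (log axis) of the 6 genes in the kallisto-style and the RSEM-style tables. Symbols are libraries, and bars give the mean and SD of 3 libraries. Mir6236 stands at 12902 to 29314 TPM in the kallisto-style tables and is listed at 0 in the RSEM-style ones, Lars2 is higher in the kallisto-style tables, and replicate 1 is the lowest symbol for every plotted gene.

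Set against both other libraries, replicate 1 was lower for each of the 5 members with RSEM-style counts. The log2(CPM + 1) of replicate 1 minus the mean of replicates 2 and 3 was -1.26 for Lars2, -0.57 for AY036118, -0.57 for Gm26917, -0.45 for Gm42418 and -0.33 for CT010467.1. Replicates 2 and 3 differed from each other by 0.03 to 0.13 on that scale. Among 7576 genes of at least 20 mean CPM, of which 38.6% were also lower in replicate 1 than in both others, these differences ranked 2nd, 5th, 6th, 12th and 34th from the lowest, beside a median of 0.008 and a 1st percentile of -0.27. With kallisto-style counts they were -1.32 for Lars2, -1.24 for Mir6236, -0.75 for AY036118, -0.58 for Gm26917, -0.43 for Gm42418 and -0.32 for CT010467.1, where 38.4% of 7684 genes were lower in replicate 1 than in both others. Lars2 was thus further below 0 than the 4 chromosome 17 genes in both sets of counts, and Mir6236 in the kallisto-style counts, where alone it has a value. In RSEM-style counts, 4 of the 7 stem cell markers were below 0: Dppa5a (-0.21), Tdgf1 (-0.16), Nanog (-0.07) and Zfp42 (-0.05). Pou5f1 was on the other side of 0 (0.43, with 610.5, 431 and 442 TPM in replicates 1, 2 and 3), as were Esrrb (0.26) and Sox2 (0.21). The part of these markers in the members' difference was not tested. In such bulk RNA, fewer cells carrying a transcript and less of it per cell cannot be told apart. An edgeR quasi-likelihood fit over 13391 genes called 5 (0.0373%) as more variable between the libraries than the trend, with Benjamini-Hochberg adjustment, and Lars2 was 1 of these 5. With kallisto-style counts it called 16 of 15934 genes (0.1%), Lars2 and Mir6236 among them. Both were known when the members were chosen, so nothing is read from these calls.

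**Figure D4:**
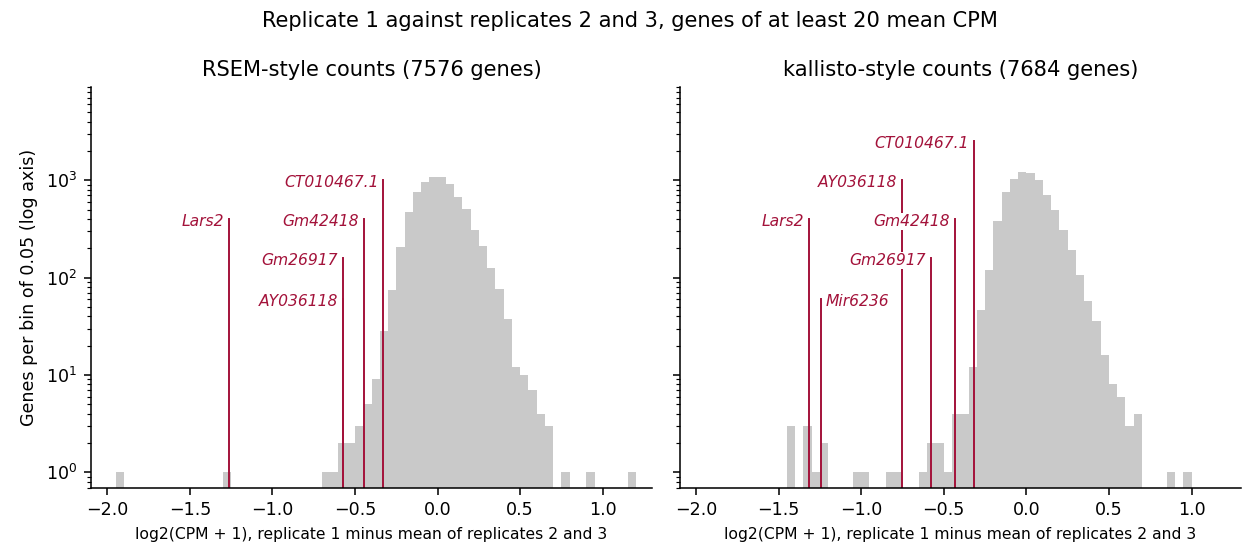
Distribution over genes of log2(CPM + 1) in replicate 1 minus the mean of replicates 2 and 3, for RSEM-style and kallisto-style counts. Grey bars count genes per bin of 0.05 (log axis) and red lines mark the members. Lars2 (-1.26 and -1.32) and, in the kallisto-style counts, Mir6236 (-1.24) stand far left of the bulk of genes, and CT010467.1 (-0.33 and -0.32) stands at its edge.

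In the kallisto-style tables, AA474408 and Gm15564, whose transcripts share blocks with the last exon of Lars2, were also low in replicate 1. AA474408 took 9281, 21116 and 20073 counts from replicates 1, 2 and 3 in the kallisto-style tables, against 6, 5 and 7 in the RSEM-style ones. Its log2 difference of replicate 1 to the other libraries was -1.23. Gm15564, which shares 1 block, had 268, 655 and 598 kallisto-style counts (-1.25) and 0, 1 and 0 RSEM-style counts. Gm24245, Gm24270 and Gm23935 have identical 57-base sequences, so their reads cannot be told apart. Each had 2126, 5468 and 5345 kallisto-style counts (-1.42) and was listed at 0 in the RSEM-style tables, where their effective length is 0. The other non-member transcripts sharing most 31-base words matched the retained-intron transcript Lars2-203 rather than the last exon. Among these, Gm47414-201 shared 38 words and Gm36618-201 shared 35, 2410004P03Rik-201 and Cd38-201 shared 25 each, and their genes held at most 20.2 kallisto-style counts in a library except Cd38, whose log2 difference was -0.06.

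**Figure D5:**
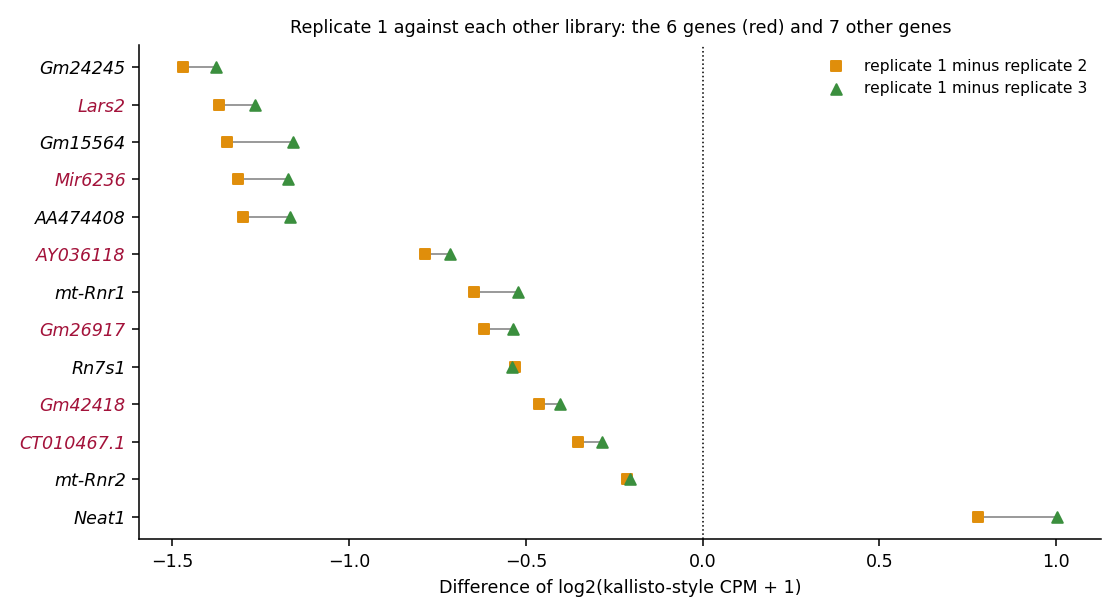
Difference of log2(kallisto-style CPM + 1) between replicate 1 and replicate 2 (squares) and between replicate 1 and replicate 3 (triangles) for the 6 members (red) and 7 other genes. Lars2, Mir6236, AA474408, Gm15564 and Gm24245 lie between -1.47 and -1.16, and the 4 chromosome 17 genes between -0.79 and -0.28. Within that second range also lie mt-Rnr1 (-0.65 and -0.52) and Rn7s1 (-0.53 and -0.54). mt-Rnr2 (both -0.21) lies nearer to 0, and Neat1 lies on the other side of 0.

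The list of other ribosomal RNA annotations joins genes typed as ribosomal RNA with genes added by name, whatever their type. It holds 362 genes in the tables, of which 356 have an RSEM-style effective length under 10 nt. Of these, 10 reached 1 TPM in every library by kallisto-style values and 2 by RSEM-style values. Of those 10, 6 were lower in replicate 1 than in both other libraries by kallisto-style CPM. Their log2 differences ran from -1.42 (the 3 identical genes) to -0.21 (mt-Rnr2). They were the 3 identical genes, Gm15564, mt-Rnr1 and mt-Rnr2, all of them added by name. The other 4, which entered by type and were all under 20 mean CPM, were not lower. The 6 therefore do not stand for genes typed as ribosomal RNA in general. These 6 had at least 20 mean CPM, where 38.4% of 7684 genes were lower in replicate 1. The 3 identical genes are not separate measurements. The 2 genes that reached 1 TPM by RSEM-style values are the ribosomal RNAs of the mitochondrion, which RNA polymerase I does not transcribe. The small-subunit mt-Rnr1 had 63.55, 104.5 and 90.9 TPM in replicates 1, 2 and 3 (86.3 ± 20.9 TPM), and the large-subunit mt-Rnr2 had 102, 116 and 119 TPM (112 ± 9.04 TPM). Over the 3 libraries mt-Rnr1 had the profile nearest to that of the members' summed RSEM-style counts (Euclidean distance 0.087 on centred log2(CPM + 1)), followed by Rbbp4 (0.127), Gm10175 (0.128), Gm10131 (0.134) and Hgs (0.15). In kallisto-style counts the nearest was Hist1h2ap (0.020), followed by Timm22 (0.166), Ccdc36 (0.172), mt-Rnr1 (0.179) and 4930572G02Rik (0.19). In RSEM-style counts the log2 difference of replicate 1 was -0.65 for mt-Rnr1, -0.25 for mt-Rnr2 and -0.64 for the members' sum. With 3 libraries such likeness is a description of these samples.

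All 15 genes of the RNA polymerase I machinery were at 1 TPM or more in every library. They were led by the initiation factor gene Rrn3 (128 ± 3.96 TPM), the subunit gene Polr1c (91.7 ± 3.29 TPM), Taf1d (90.1 ± 1.12 TPM) and Znrd1 (81.8 ± 2.63 TPM), and Taf1c was lowest (6.76 ± 0.951 TPM). Over the 13 that reached 20 mean CPM, replicate 1 differed by -0.12 to 0.22 on the log2 scale (median 0.07), so none had a difference as low as that of any member. Among the other structural noncoding RNAs, Rn7s1 and Rn7s2, near-identical genes of the signal recognition particle RNA whose values are equal and uncertain, had 170, 270 and 260 TPM each in replicates 1, 2 and 3. The log2 difference of replicate 1 for Rn7s1 was -0.65 in RSEM-style counts, where it was under 20 mean CPM, and -0.54 in kallisto-style counts. Neat1 went the other way at 29.7, 16.2 and 15.3 TPM, Malat1 had 16.5, 11.9 and 12.95 TPM, Rpph1 had 13.5, 11.4 and 14.7 TPM, and Rmrp was listed at 0. Leaving the members out of the library totals raised the CPM of every other gene by 0.006 to 0.0096 on the log2 scale with RSEM-style counts and by 0.0094 to 0.017 with kallisto-style counts.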

How the data were processed

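Values were taken as deposited, with the mm10 build and GENCODE M21 given per the file headers. The authors' RSEM-style tables hold expected counts and TPM, and their kallisto-style tables hold estimated counts and TPM. No source used here gives the quantifiers' versions or strand settings. Rows of ERCC spike-ins and of transfer RNAs, 1.89% of counts, were left out of library sizes and tests. CPM were computed from the counts of the 55536 genes, with a pseudocount of 1 for log2 values. Counts were rounded for edgeR 4.0.16 (filterByExpr, TMM, an intercept-only quasi-likelihood fit and an F test of each dispersion against the trend, adjusted p under 0.05). Transcripts at 1 TPM or more in either table in all 3 libraries were compared with limma 3.58.1. Both scripts were tested on simulated data. Words of 31 bases were counted in the GENCODE M21 transcripts. Python 3.11.15 with pandas 2.3.3 computed the rest. The members and lists were chosen with earlier results of these data known. The text names the members, their transcripts at a mean of 1 TPM, the 5 nearest profiles, the 5 transcripts sharing most words and the highest 4 and the lowest gene of each list. Gm15564, Gm24245, Gm24270, Gm23935 and mt-Rnr2 values beyond that rule were chosen after they were seen. An item of the synthetase list and a sequence are not reported here. Alternatives changed the quantifier, unit, scaling, pseudocount, filter, word length and library set. The calls measure the spread between these 3 libraries, for which nothing says how separately the cultures were grown.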

Additional observations from a re-analysis of the deposited data

How the results depend on the processing

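No paired analysis between conditions was possible because the labels give a single group. The comparison of the quantifications was paired by library. The members' share of gene counts (0.568%) was 0.976% with kallisto-style counts and 0.332% as a share of TPM, and 0.520% to 0.645% with a library left out. Their summed level (3321 TPM) was 27099 TPM in the kallisto-style tables, where Mir6236 gives most of it, and 5675 CPM, which is not per length; the cause of the other moves was not tested. Variable genes (5) numbered 2 with ERCC scaling, 34 without the filter on low counts, 16 with kallisto-style counts, and 14, 9 and 7 without replicates 1, 2 and 3. The edgeR adjusted p of Lars2 was 0.000465, and it was not called with ERCC scaling (0.0528) or without replicate 1 (0.0544). Without the filter Gm26917, Gm42418 and AY036118 were called too (edgeR adjusted p = 0.00111, 0.0393 and 0.0434). Transcripts called between quantifications (5450) numbered 17807 without a minimum difference. ERCC scaling moved the median log2 difference of replicate 1 over all genes from 0.008 to 0.17. It moved the members' summed difference from -0.64 to -0.47. Single members then ran from -0.16 (CT010467.1) to -1.10 (Lars2). A library scaling moves all genes of a library nearly alike. The summed difference less the median, -0.65 with and without ERCC scaling, could thus hardly change, and nothing is read from it. The kallisto-style minus RSEM-style difference of CT010467.1-201 (-0.003), which was not called, was -0.0343, 0.0109 and 0.0141 without replicates 1, 2 and 3, and no other direction turned under the alternatives run. The difference of Mir6236-201 was 14.4 with a pseudocount of 1 and 17.7 with 0.1, as its RSEM-style values are 0. With 3 libraries no sample could be tested as an outlier.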
